A study of Mus musculus with 18 samples.

Results

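Trem2 and 7 genes through which its signal is carried or held back, Tyrobp, Hcst, Syk, Plcg2, Inpp5d, Vav1 and Card9, were followed in mouse brain after stroke. They are 8 of the 18922 genes in the deposited table. They were named from the known order of the pathway, with earlier results of these data known. All 8 passed the filter on low counts that left 15329 genes for testing. The 18 bulk polyA RNA-seq libraries came from Trem2 knockout (KO) and wild-type (WT) mice. A photothrombotic stroke, made in cortex by green light after the photosensitive dye Rose Bengal, had been induced 7 days earlier. The infarct core, the peri-infarct tissue around it and the contralateral hemisphere were each sampled in 3 KO and 3 WT libraries. All groups were male C57Bl6 mice of 8 to 10 weeks that received the lesion and 50 mg/kg of the dye, so the contralateral tissue is an unlesioned side of a lesioned animal. The labels give neither the knockout allele nor the part of Trem2 that is deleted, and they do not say which libraries came from the same animal.

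TREM2 is a lipid and lipoprotein receptor of microglia and other macrophages that has no signalling tail of its own. It pairs with TYROBP (DAP12), whose tyrosine motif is phosphorylated by Src family kinases and then recruits the kinase SYK, and with HCST (DAP10), which recruits PI3 kinase. SYK activates phospholipase C gamma 2, the Rac exchange factor VAV1 and the adaptor CARD9, while the phosphatase INPP5D (SHIP1) removes the lipid that PI3 kinase makes. These proteins are shared with many other receptors of myeloid cells, including Fc receptors and C-type lectins.

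The promoters of the members are shown as background, and their part in the members' levels was not tested. RefSeq tables on GRCm38.p6 held a promoter for 7 of the 8 members, with 8 start sites, each of 300 bases from 250 before to 50 after the start. The windows of all 8 start sites below give the 100 bases from 60 before the start to 40 from it, on the gene's strand, with motif matches in capitals. The letters searched on both strands were GAGGAA and AGGAAGT, purine-rich cores of the kind bound by ETS factors such as PU.1 (Spi1), the factor that myeloid cells are known for, and the 2 motifs overlap wherever GAGGAAGT occurs.
Trem2: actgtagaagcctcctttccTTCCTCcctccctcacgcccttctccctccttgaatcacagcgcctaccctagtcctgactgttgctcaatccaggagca
Hcst: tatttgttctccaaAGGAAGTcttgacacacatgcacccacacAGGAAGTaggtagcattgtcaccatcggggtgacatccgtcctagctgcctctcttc
Syk, first start site: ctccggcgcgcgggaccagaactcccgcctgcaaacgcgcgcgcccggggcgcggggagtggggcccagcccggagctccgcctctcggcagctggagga
Syk, second start site: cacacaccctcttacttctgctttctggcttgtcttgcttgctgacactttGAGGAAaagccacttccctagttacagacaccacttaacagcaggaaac
Plcg2: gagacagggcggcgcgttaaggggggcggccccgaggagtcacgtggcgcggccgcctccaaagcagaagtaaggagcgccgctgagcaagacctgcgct
Inpp5d: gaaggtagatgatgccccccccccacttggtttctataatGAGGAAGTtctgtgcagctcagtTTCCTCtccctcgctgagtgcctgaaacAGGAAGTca
Vav1: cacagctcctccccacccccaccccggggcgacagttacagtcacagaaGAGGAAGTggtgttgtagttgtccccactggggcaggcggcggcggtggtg
Card9: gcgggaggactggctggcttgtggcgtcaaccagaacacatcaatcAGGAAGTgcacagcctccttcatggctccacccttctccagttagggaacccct

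The Trem2 window is chr17:48346341-48346440 on the plus strand, and its GAGGAA match, written there as the reverse complement TTCCTC, begins 40 bases before the start. The Hcst window is chr7:30419815-30419914 on the minus strand, with AGGAAGT beginning 46 and 17 bases before the start. The Syk windows are chr13:52583377-52583476, with no match, and chr13:52596822-52596921, with GAGGAA beginning 9 bases before the start, both on the plus strand. The Plcg2 window, chr8:117498215-117498314 on the plus strand, holds no match. The Inpp5d window is chr1:87620252-87620351 on the plus strand, and its GAGGAAGT begins 20 bases before the start. The Vav1 window is chr17:57279040-57279139 on the plus strand, and its GAGGAAGT begins 11 bases before the start. The Card9 window is chr2:26360870-26360969 on the minus strand, and its AGGAAGT begins 14 bases before the start. Over the full 300 bases, GAGGAA was present in 4 of the 7 members (Trem2, Syk, Inpp5d and Vav1) and in 28.3% of all 32851 promoters in the table. AGGAAGT was present in 4 of the 7 (Hcst, Inpp5d, Vav1 and Card9) and in 9.35% of all promoters, and Plcg2 had neither. These are matches of letters and not mapped binding sites. In the same annotation Hcst is the neighbour of Tyrobp on chromosome 7, and Treml1 is the neighbour of Trem2 on chromosome 17.

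The libraries held 16993978 to 18713770 counts. The highest total belonged to WT core replicate 3, which stood apart from the other libraries: its 10 most abundant genes took 15.5% of counts against 3.27% to 5.38% elsewhere, and the summed level of 6 excitatory neuron markers was 15.0 CPM (counts scaled to a common library size) against 3881 and 4110.4 CPM in the other WT core libraries. The sum of 10 pan-myeloid markers was 6156 CPM in it, against 1843 and 2011 CPM in the other WT core libraries. Comparisons of the members are therefore given with all libraries and again without this library, and those of the wider pathway by counts, medians and the genes named. Myeloid cells were present throughout, since all 10 pan-myeloid and all 9 homeostatic microglia markers were detected in every library, and of 7 neutrophil markers Ly6g was at 0 in all groups but KO core while the other 6 were detected in every group. In whole tissue, fewer cells of a type and less RNA per cell cannot be told apart. Choroid plexus markers summed to 2329 CPM in KO contralateral replicate 2, and to 566 and 2167 CPM in KO peri-infarct replicates 1 and 3. Elsewhere they reached at most 260 CPM (WT contralateral replicate 2). Median log2 fold changes of 6 striatum markers, KO over WT, were 0.83, 0.87 and 0.93 in contralateral, peri-infarct and core tissue. Without WT core replicate 3 the core median was 0.47. None of these markers passed between KO and WT, and their part was not tested.

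Trem2 itself was far lower in every KO library than in any WT library of the same region. CPM scaled by the trimmed mean of M values (TMM) were 0.691, 0.902 and 0.337 in KO contralateral tissue, against 27.9, 20.5 and 28.0 CPM in WT contralateral tissue. They were 2.47, 3.19 and 3.93 CPM in KO peri-infarct tissue, against 130, 91.4 and 125 CPM in WT peri-infarct tissue. They were 5.59, 8.24 and 5.23 CPM in KO core, against 184, 215 and 920 CPM in WT core. The groups were far apart in all 3 regions, and the KO mean was 2.53%, 2.77% and 1.44% of the WT mean in contralateral, peri-infarct and core tissue (3.18% in core without WT core replicate 3). By edgeR's quasi-likelihood test with Benjamini-Hochberg adjustment over all genes, the log2 fold change of KO over WT was -5.29 ± 0.62 in contralateral tissue (SE, adjusted p = 0.0109), -5.17 ± 0.58 in peri-infarct tissue (adjusted p = 0.00618) and -6.11 ± 0.60 in core (adjusted p = 0.00119, with -4.95 ± 0.23 without WT core replicate 3). Averaged over the 3 regions it was -5.52 ± 0.35 (adjusted p = 3.79e-06). Leaving out KO contralateral replicate 1, 2 or 3 ended the contralateral call (adjusted p = 0.176, 0.0784 and 0.166). Leaving out KO peri-infarct replicate 1, 2 or 3 ended the peri-infarct call (adjusted p = 0.13, 0.122 and 0.0831). A fit of the 6 core libraries alone gave -6.10 in core without passing the threshold, while the call on the mean over regions passed in every alternative run.

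The reads that remained in KO tissue were few but rose with the lesion. Trem2 had 12, 16 and 6 counts in KO contralateral tissue, 43, 55 and 71 counts in KO peri-infarct tissue and 101, 148 and 99 counts in KO core. No 2 of these regions overlapped. The log2 fold change was 2.30 ± 0.60 for KO peri-infarct over KO contralateral tissue (adjusted p = 0.0456) and 3.29 ± 0.60 for KO core over KO contralateral tissue (adjusted p = 0.00126). The peri-infarct call was lost when any KO, WT contralateral or WT peri-infarct library was left out (highest adjusted p = 0.2). It was 2.23 ± 0.37 without WT core replicate 3 (adjusted p = 0.000622), and the core call passed with each library left out. Because the deleted part of the gene is not given, whether these reads lie in it was not tested. The neighbouring gene Treml1, which encodes a receptor known from platelets, had 1, 4 and 1 counts in KO contralateral tissue against 0, 2 and 0 in WT contralateral tissue. It had 2, 5 and 7 counts in KO peri-infarct tissue against 2, 1 and 1 in WT peri-infarct tissue, and 11, 13 and 11 counts in KO core against 3, 5 and 7 in WT core. Treml1 counts were higher in every KO core library than in any WT core library, and no call was made for it in any genotype comparison.

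**Figure D1:**
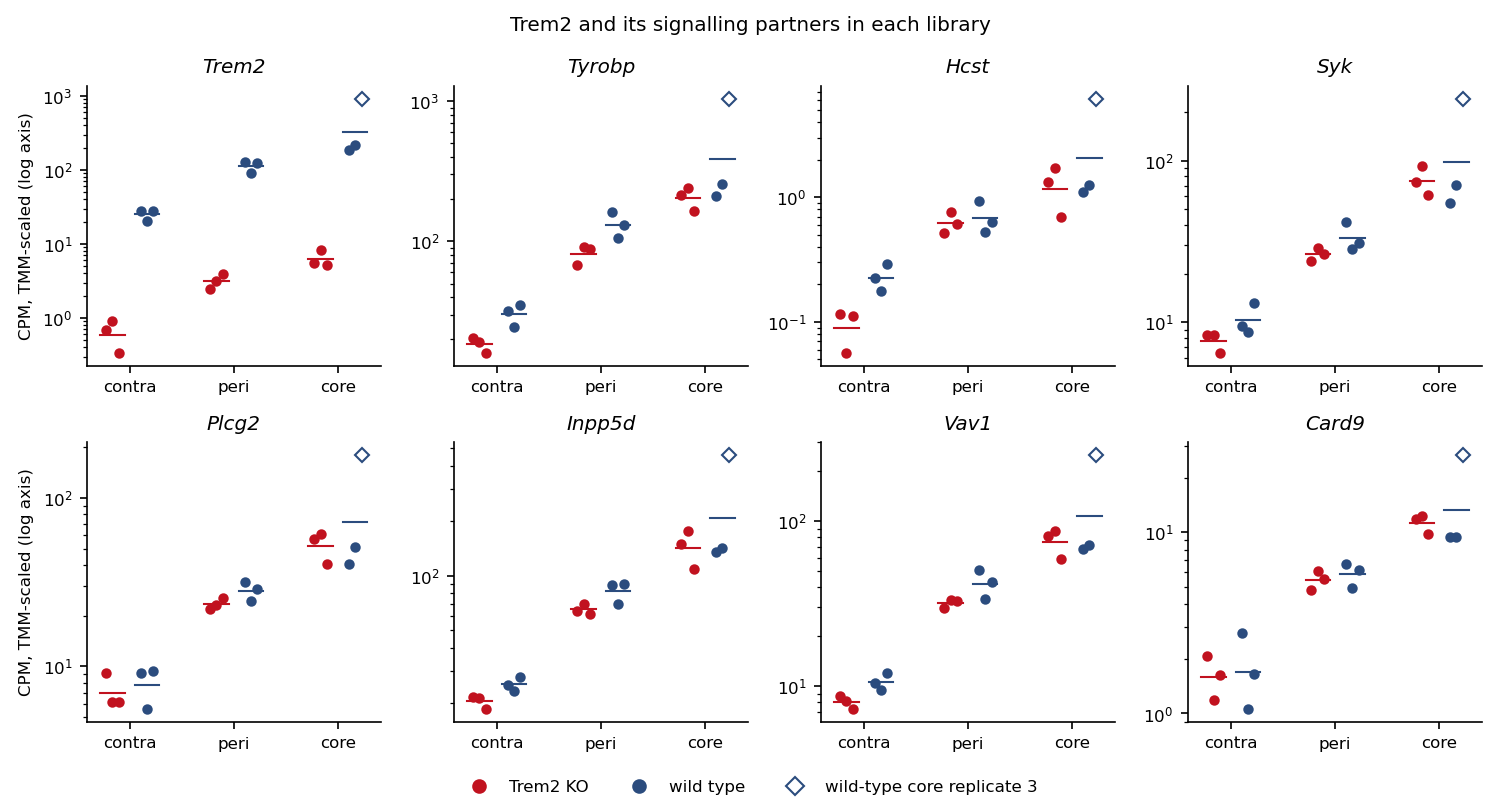
Level of each of the 8 members in every library, in TMM-scaled CPM on a log axis, by region with KO left of WT; points are libraries, bars geometric means of 3 libraries, and the open diamond marks WT core replicate 3. Trem2 lay between 0.337 and 8.24 CPM in the 9 KO libraries, and the means of all 8 genes are ordered contralateral, peri-infarct, core in KO and in WT.

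Tyrobp, the adaptor on which TREM2 depends for surface expression and signalling, was the member nearest to Trem2 in its pattern over the WT libraries. Its level was 20.5, 19.1 and 16.02 CPM in KO contralateral tissue, against 31.9, 24.6 and 35.4 CPM in WT contralateral tissue. In peri-infarct tissue it was 68.3, 90.6 and 87.5 CPM in KO, against 162, 105 and 130 CPM in WT. In core it was 213, 239 and 165 CPM in KO, against 212, 257 and 1040 CPM in WT. All KO libraries were below all WT libraries in contralateral and peri-infarct tissue, where KO means were 60.4% and 62.0% of WT means, and the core libraries overlapped. The log2 fold change of KO over WT was -0.73 ± 0.45 in contralateral tissue, -0.69 ± 0.45 in peri-infarct tissue and -1.29 ± 0.45 in core (adjusted p = 0.395, with -0.17 ± 0.20 without WT core replicate 3), and none passed the threshold. Averaged over regions it was -0.90 ± 0.26 (adjusted p = 0.193). The averaged value was -0.52 ± 0.11 without WT core replicate 3 and passed (adjusted p = 0.0139), and DESeq2 on all libraries also called it (-0.91, adjusted p = 0.0348). The fits took libraries of different regions as independent, so if regions share animals the p-values of averages may be too small. The adjusted p of the averaged value lay between 0.0139 and 0.424 over all alternatives.

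The summed level of pan-myeloid markers was lower in KO in the peri-infarct libraries, by a narrow gap, and overlapped in the other regions. The summed level of the 10 pan-myeloid markers was 280 to 373 CPM in KO contralateral tissue, against 352 to 414 CPM in WT contralateral tissue. It was 925 to 1093 CPM in KO peri-infarct tissue against 1101 to 1379 CPM in WT peri-infarct tissue, and 1529 to 2387 CPM in KO core against 1843 to 6156 CPM in WT core. In peri-infarct tissue the homeostatic microglia sum was 1358 to 1535 CPM in KO against 1848 to 2254 CPM in WT. The sum of monocyte and macrophage markers overlapped there, at 72.8 to 155 CPM in KO against 112 to 335 CPM in WT. The neutrophil sum also overlapped, at 42.0 to 47.2 CPM in KO against 36.1 to 47.1 CPM in WT. No pan-myeloid marker passed between KO and WT with all libraries, and 1 of 10 was lower in the average over regions without WT core replicate 3. In that fit and comparison 3 of 9 homeostatic microglia markers were lower, and of 9 markers of monocytes and infiltrating macrophages 1 was higher and 0 were lower. Of all genes, 5.2% were lower and 2.26% higher in the same average without WT core replicate 3. In KO core over WT core, 2 of 5 tested neutrophil markers were higher in that fit (0.998% of all genes were). The part of these markers in the Tyrobp difference was not tested. When each library was set against the mean log2 CPM of the 10 pan-myeloid genes, Tyrobp was -0.21, -0.04 and -0.12 in KO contralateral tissue. In WT contralateral tissue it was 0.28, 0.19 and 0.38. It was -0.00, 0.29 and 0.39 in KO peri-infarct tissue against 0.72, 0.46 and 0.42 in WT peri-infarct tissue, and 0.31, 0.39 and 0.49 in KO core against 0.63, 0.75 and 1.10 in WT core. The KO and WT libraries did not overlap in any region on this scale, where KO lay wholly below WT for 0.731%, 0.639% and 0.926% of all genes in contralateral, peri-infarct and core tissue. KO lay wholly above WT for 21.7%, 41.2% and 4.73% of all genes in these regions, so the scale is uneven between the directions. Tyrobp was the only partner wholly below, while Inpp5d and Card9 lay wholly above in peri-infarct tissue. The relative difference of KO minus WT, by limma, was -0.40 ± 0.20, -0.31 ± 0.20 and -0.43 ± 0.20 in contralateral, peri-infarct and core tissue and -0.38 ± 0.11 on average (adjusted p = 0.139, with -0.33 ± 0.10 and adjusted p = 0.0585 without WT core replicate 3), so that it did not pass. Of the 7 partners, 0 passed on this scale, where 0.75% of all genes did on average over regions.

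**Figure D2:**
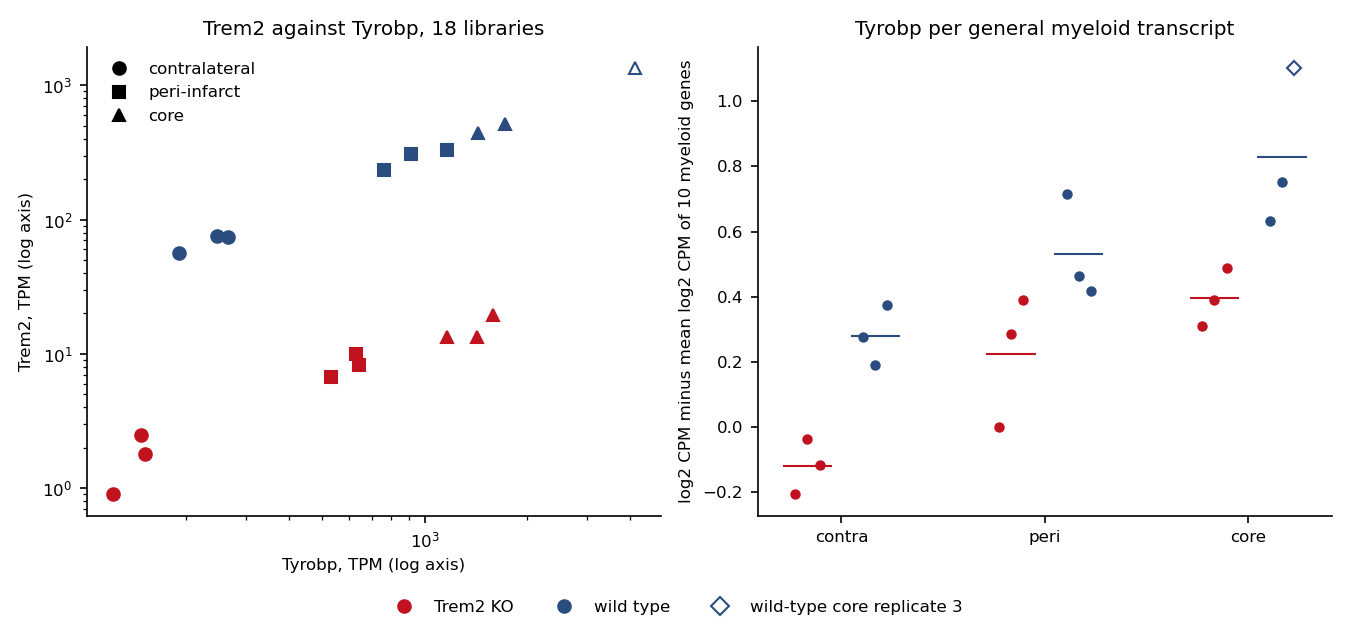
Left, Trem2 against Tyrobp in TPM (counts scaled for gene length and library size) on log axes for all 18 libraries; right, Tyrobp as log2 CPM minus the mean log2 CPM of 10 pan-myeloid genes, by region with KO left of WT, points being libraries and bars means. On the right, KO libraries lie below WT libraries in each region, with means that differ by 0.31 to 0.43 log2 units.

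The length-scaled levels placed Tyrobp far above the rest. In WT contralateral tissue Tyrobp averaged 234 ± 39.0 TPM (SD, n = 3) and Trem2 68.6 ± 10.9 TPM, followed by Inpp5d at 11.98 ± 0.90 TPM. Vav1 (5.99 ± 0.67 TPM), Syk (4.60 ± 0.98 TPM), Plcg2 (4.34 ± 1.11 TPM), Hcst (3.19 ± 0.76 TPM) and Card9 (2.51 ± 1.21 TPM) came next, and each of these overlapped with its neighbour in the order. The ratio of Trem2 to Tyrobp hardly varied within WT tissue. Trem2 TPM was 1.20 ± 0.47%, 1.38 ± 0.18% and 1.10 ± 0.15% of Tyrobp TPM in KO contralateral, peri-infarct and core tissue, against 29.3 ± 1.40%, 30.9 ± 2.68% and 31.0 ± 1.25% in WT contralateral, peri-infarct and core tissue. WT core replicate 3, with 1338 TPM of Trem2 and 4139 TPM of Tyrobp, had a ratio of 32.3%.

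Hcst, the adaptor that links receptors to PI3 kinase, had the fewest counts of the 8 members in every library. It had 2, 1 and 2 counts in KO contralateral tissue against 4, 3 and 5 in WT contralateral tissue. It had 9, 13 and 11 counts in KO peri-infarct tissue against 16, 9 and 11 in WT peri-infarct tissue, and 24, 31 and 13 counts in KO core against 19, 22 and 95 in WT core. The groups did not overlap in contralateral tissue and overlapped in peri-infarct and core tissue. Its log2 fold change of KO over WT was -1.23 ± 0.87, -0.15 ± 0.61 and -1.18 ± 0.55 in contralateral, peri-infarct and core tissue and none passed. The contralateral values rest on 1 to 5 counts a library.

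Syk, the kinase recruited by phosphorylated TYROBP, had 8.29, 8.34 and 6.46 CPM in KO contralateral tissue against 9.55, 8.74 and 13.2 CPM in WT contralateral tissue. In peri-infarct tissue it had 23.8, 28.9 and 26.4 CPM in KO against 41.8, 28.3 and 30.9 CPM in WT. In core it had 73.3, 92.8 and 61.4 CPM in KO against 54.4, 70.6 and 241 CPM in WT. KO lay below WT throughout contralateral tissue, and the groups overlapped in peri-infarct and core tissue. The log2 fold change was -0.45 ± 0.43, -0.35 ± 0.42 and -0.69 ± 0.41 in contralateral, peri-infarct and core tissue, and the core value became 0.30 ± 0.20 without WT core replicate 3. No Syk value passed.

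Plcg2, the phospholipase downstream of SYK, had 9.09, 6.14 and 6.13 CPM in KO contralateral tissue against 9.15, 5.57 and 9.34 CPM in WT contralateral tissue. In peri-infarct tissue it had 21.9, 23.1 and 25.5 CPM in KO against 31.8, 24.4 and 28.7 CPM in WT. In core it had 56.9, 61.3 and 40.5 CPM in KO against 40.4, 50.9 and 180 CPM in WT. The groups overlapped in all 3 regions. The log2 fold change of -0.17 ± 0.45, -0.27 ± 0.43 and -0.77 ± 0.43 in contralateral, peri-infarct and core tissue did not pass, and in core it was 0.23 ± 0.21 without WT core replicate 3.

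Inpp5d, the lipid phosphatase that restrains the pathway, had 21.5, 21.3 and 18.4 CPM in KO contralateral tissue against 25.1, 23.2 and 27.7 CPM in WT contralateral tissue. In peri-infarct tissue it had 63.9, 70.2 and 61.7 CPM in KO against 88.7, 70.0 and 89.3 CPM in WT. In core it had 150 CPM, 176 CPM and 109 CPM in KO against 135, 141 and 459 CPM in WT. KO was below WT throughout contralateral tissue, and the groups overlapped in peri-infarct and core tissue. Its log2 fold change was -0.31 ± 0.36, -0.34 ± 0.36 and -0.76 ± 0.36 in contralateral, peri-infarct and core tissue (0.09 ± 0.16 in core without WT core replicate 3), and none passed.

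Vav1, an exchange factor that switches on Rac, had 8.75, 8.12 and 7.25 CPM in KO contralateral tissue against 10.5, 9.44 and 12.1 CPM in WT contralateral tissue. In peri-infarct tissue it had 29.7, 33.3 and 32.7 CPM in KO against 50.4, 33.9 and 42.8 CPM in WT. In core it had 81.3, 87.2 and 58.6 CPM in KO against 67.9, 72.1 and 252 CPM in WT. KO was below WT in every contralateral and peri-infarct library, and the core libraries overlapped. The log2 fold change of -0.41 ± 0.39, -0.41 ± 0.38 and -0.79 ± 0.38 in contralateral, peri-infarct and core tissue did not pass, and in core it was 0.13 ± 0.17 without WT core replicate 3.

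Card9, the adaptor that carries SYK signals to NF-kB, had 2.07, 1.18 and 1.63 CPM in KO contralateral tissue against 2.77, 1.06 and 1.64 CPM in WT contralateral tissue. In peri-infarct tissue it had 4.78, 6.09 and 5.54 CPM in KO against 6.70, 4.92 and 6.16 CPM in WT. In core it had 11.8, 12.3 and 9.73 CPM in KO against 9.41, 9.36 and 26.6 CPM in WT. The groups overlapped in all 3 regions. Every KO core library was above WT core replicates 1 and 2, and without replicate 3 this gave a log2 fold change of 0.29 ± 0.26 that did not pass. With all libraries the log2 fold changes were -0.17 ± 0.43, -0.12 ± 0.39 and -0.42 ± 0.38 in contralateral, peri-infarct and core tissue.

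Across the 7 partners, 0 passed between KO and WT in contralateral tissue, 0 in peri-infarct tissue, 0 in core and 0 in the average over regions. Of all genes tested, 0.00652% passed in contralateral tissue, 0.00652% in peri-infarct tissue, 0.013% in core and 0.228% in the average. The shares of all genes without WT core replicate 3 were 0.0389%, 0.117%, 3.06% and 7.46%, and the partners called were 0, 0, 0 and 1. At an unadjusted p under 0.05 the partners numbered 0, 0 and 1 in contralateral, peri-infarct and core tissue and 3 in the average, beside 2.96%, 3.23%, 11.9% and 13% of all genes. DESeq2 called 1 partner, Tyrobp, in the average and 0 in each region. All 7 averaged log2 fold changes were below 0, from -0.90 (Tyrobp) to -0.23 (Card9), beside a median of -0.01 over all genes. They ran, without WT core replicate 3, from -0.52 (Tyrobp) to 0.00 (Card9), and 1 of 7, Tyrobp, was called lower, where 5.2% of all genes were. KO libraries were all below WT libraries for 6 of the 8 members in contralateral tissue and for Trem2, Tyrobp and Vav1 in peri-infarct tissue, against 10.5% and 9.27% of all genes. In core that held for Trem2 alone of the 8 members, against 5.09% of all genes.

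**Figure D3:**
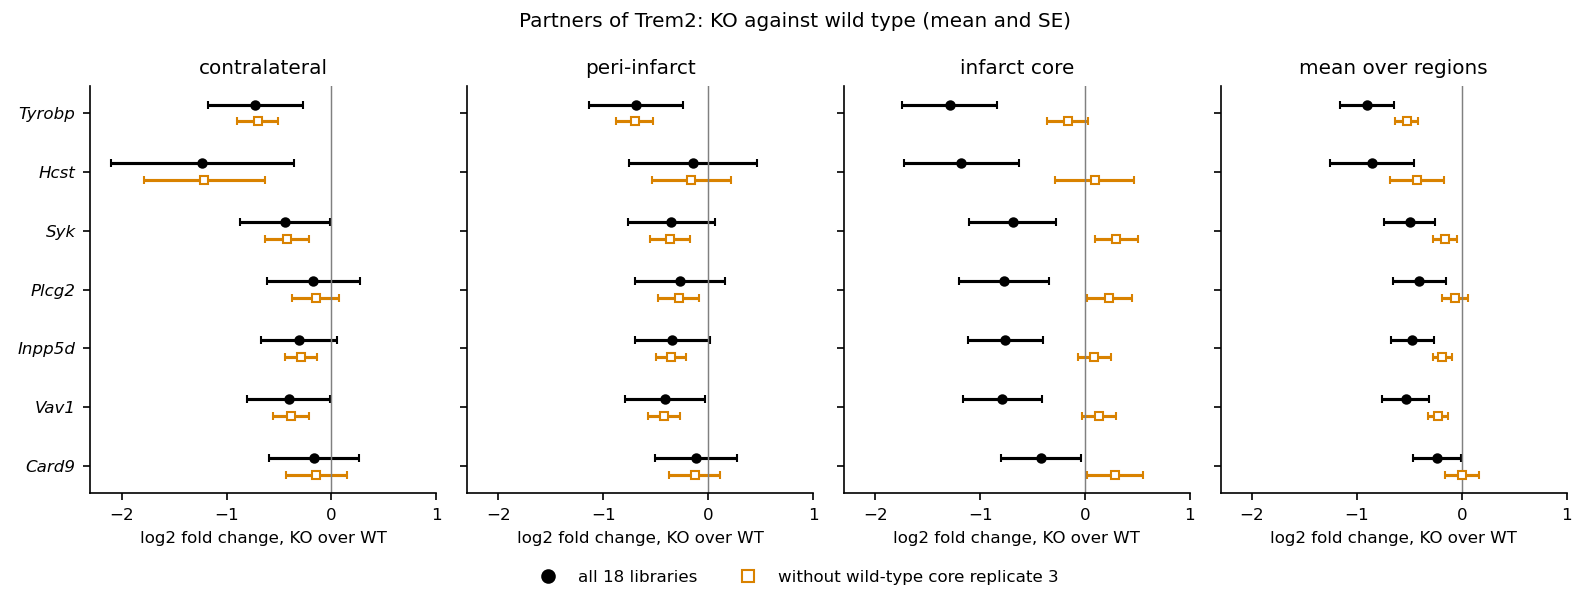
Log2 fold change of KO over WT for each partner in the 3 regions and averaged over them, with SE from edgeR; black is the fit with all libraries, orange the fit without WT core replicate 3. In core, all 7 values are below 0 with all libraries, and 6 of 7 are above 0 without that library, Tyrobp (-0.17) being the exception.

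Across regions the partners rose together. In KO peri-infarct over KO contralateral tissue, 6 of 7 partners rose (4.42% of all genes did), by log2 fold changes of 2.15 ± 0.47 for Tyrobp, 1.78 ± 0.44 for Syk, 1.72 ± 0.45 for Plcg2, 1.68 ± 0.37 for Inpp5d, 1.99 ± 0.40 for Vav1 and 1.74 ± 0.42 for Card9. Hcst had 2.64 ± 0.78 and did not pass (adjusted p = 0.0754). In WT peri-infarct over WT contralateral tissue, 6 of 7 partners rose (3.27% of all genes did), by 2.11 ± 0.46 for Tyrobp, 1.68 ± 0.43 for Syk, 1.82 ± 0.45 for Plcg2, 1.71 ± 0.37 for Inpp5d, 1.99 ± 0.40 for Vav1 and 1.69 ± 0.41 for Card9. Hcst had 1.56 ± 0.68 (adjusted p = 0.338), and Trem2 rose by 2.18 ± 0.50 (adjusted p = 0.0335). Peri-infarct libraries were above contralateral libraries for all 8 members in KO and in WT, as for 25.7% of all genes in KO and 22.3% in WT.

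The number of peri-infarct calls depended on which libraries set the spread. All 7 partners passed in KO (13.7% of all genes) and all 7 in WT (14.2%) without WT core replicate 3. Hcst, low in contralateral tissue, was tested there only because lesion libraries carried it through the filter. In KO, 0 passed without KO contralateral replicate 1, 2 or 3 or KO peri-infarct replicate 2 or 3, 2 passed without KO peri-infarct replicate 1, and 3 without WT contralateral replicate 3. In WT, 0 passed without WT contralateral replicate 1, 2 or 3 or WT peri-infarct replicate 1 or 3, and 3 passed without WT peri-infarct replicate 2 or any of the 9 KO libraries. The WT count was also 3 with no filter on low counts and 3 with relative log expression (RLE) size factors, under which Trem2 no longer passed (2.12, adjusted p = 0.0511). The WT call of Trem2 was also lost without WT contralateral replicate 1, 2 or 3, WT peri-infarct replicate 1 or 3, KO peri-infarct replicate 2 or KO core replicate 1 (highest adjusted p = 0.175). All these fold changes kept their direction.

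The core showed the highest levels. All 7 partners rose in KO core over KO contralateral tissue (19.7% of all genes did), by log2 fold changes of 3.47 ± 0.49 for Tyrobp, 3.62 ± 0.75 for Hcst, 3.30 ± 0.46 for Syk, 2.89 ± 0.46 for Plcg2, 2.83 ± 0.38 for Inpp5d, 3.23 ± 0.42 for Vav1 and 2.79 ± 0.42 for Card9. All 7 also rose in WT core over WT contralateral tissue (29.1% of all genes did), by 4.04 ± 0.50 for Tyrobp, 3.57 ± 0.65 for Hcst, 3.54 ± 0.46 for Syk, 3.49 ± 0.47 for Plcg2, 3.27 ± 0.39 for Inpp5d, 3.61 ± 0.42 for Vav1 and 3.04 ± 0.42 for Card9. Trem2 rose by 4.11 ± 0.54 in WT core (adjusted p = 0.000127). Without WT core replicate 3 the WT values were lower, at 2.97 for Trem2, 2.93 for Tyrobp, 2.31 for Hcst, 2.57 for Syk, 2.50 for Plcg2, 2.44 for Inpp5d, 2.71 for Vav1 and 2.35 for Card9, and 7 of 7 partners still passed (23.6% of all genes). The KO count was also 7 of 7 without that library (29.6% of all genes). The count of 7 held with each library left out in KO and in WT, and a fit of the 6 WT libraries alone called 0 in WT. Hcst had 1 to 5 counts in contralateral libraries and, on those libraries alone, did not pass the filter on low counts. It was tested because lesion libraries held more, so its part in the count of 7 is not independent of the filter. The same holds for any listed marker or receptor that is low in contralateral tissue. The 10 pan-myeloid markers also rose in all 4 of these comparisons, 10 of 10 in each, with median log2 fold changes of 1.82 and 2.96 in KO peri-infarct and KO core tissue and of 1.86 and 3.48 in WT peri-infarct and WT core tissue (2.56 in WT core without WT core replicate 3). Homeostatic microglia markers rose in core for 9 of 9 in KO and 9 of 9 in WT. Of 9 markers of monocytes and infiltrating macrophages, 9 rose in KO core (median 3.68) and 9 in WT core (median 4.58, or 7 and 3.06 without WT core replicate 3). Of 5 tested neutrophil markers, 5 rose in KO core (median 5.38) and 5 in WT core (median 3.50, or 3 and 1.72 without WT core replicate 3). The part of these cell types in the members' rise was not tested.

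**Figure D4:**
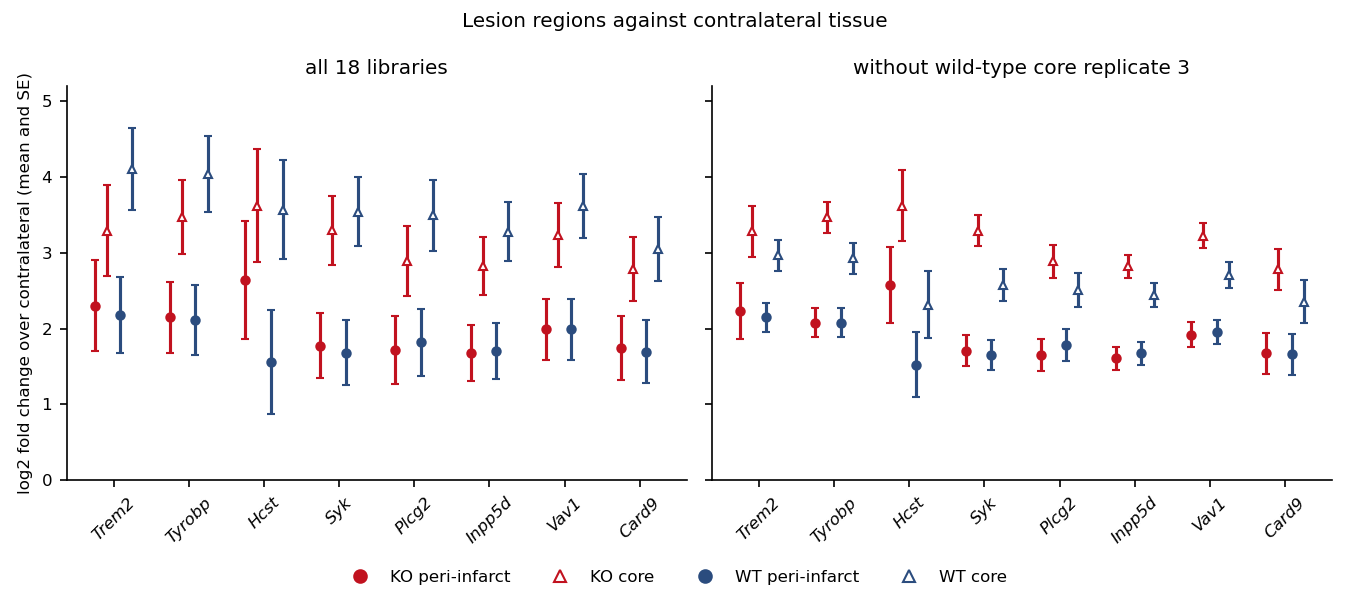
Log2 fold change over contralateral tissue for each member, with SE, in KO (red) and WT (blue), as circles for peri-infarct and open triangles for core tissue, from the fit with all libraries and the fit without WT core replicate 3. All values are above 0, and WT core values span 3.04 to 4.11 with all libraries and 2.31 to 2.97 without that library.

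Core over peri-infarct tissue was less certain. In KO, 0 of 7 partners passed and 0% of all genes did, although 2857 genes (18.6%) and 6 partners had an unadjusted p under 0.05. The KO log2 fold changes ran from 0.98 (Hcst) to 1.52 (Syk). Without WT core replicate 3, 7 of 7 passed in KO (24.3% of all genes), from 1.05 (Hcst) to 1.59 (Syk). DESeq2 called 3 partners in KO, limma on log2 TPM 4 to 6, and a fit of the 6 KO libraries alone 6. In WT, 7 of 7 partners passed (12.3% of all genes), from 1.35 ± 0.39 (Card9) to 2.01 ± 0.58 (Hcst). Without WT core replicate 3, 4 of 7 passed in WT (4.88% of all genes), Tyrobp at 0.85 ± 0.20, Syk at 0.92 ± 0.20, Inpp5d at 0.77 ± 0.16 and Vav1 at 0.75 ± 0.16. Trem2 had 1.93 ± 0.49 in WT (adjusted p = 0.0342) and 0.82 ± 0.20 without WT core replicate 3 (adjusted p = 0.0331), and was not called without WT peri-infarct replicate 1, 2 or 3. The WT partner count was 0 without WT peri-infarct replicate 1, 2 or 3 and 4 without KO peri-infarct replicate 2, and a fit of the 6 WT libraries alone called 0. Core libraries were above peri-infarct libraries for every member but Hcst in KO, as for 26.1% of all genes, and for every member in WT, as for 19.4% of all genes.

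Whether the rise itself differed between genotypes was tested by interaction terms, and 0 of 7 partners and 0% of all genes passed for peri-infarct or for core tissue (112 and 366 genes at an unadjusted p under 0.05). The KO minus WT difference of the peri-infarct rise lay between -0.09 (Plcg2) and 1.08 (Hcst) log2 units. That of the core rise lay between -0.82 (Trem2) and 0.05 (Hcst) with all libraries and between 0.32 (Trem2) and 1.31 (Hcst) without WT core replicate 3. For Tyrobp the peri-infarct difference was 0.04 ± 0.63 and the core difference -0.56 ± 0.63, or 0.54 ± 0.28 without that library. Over the 8 members the SEs were 0.51 to 1.05 for peri-infarct and 0.51 to 0.79 for core tissue, so these values do not show that the rises were alike. SEs derived from a fold change near 0 are unreliable and can be too small. That of Hcst in core was 0.53, below its 0.87 for KO over WT in contralateral tissue, which is part of the contrast.

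Genes with the most similar pattern were sought by the root mean square difference of centred log2 CPM. Over the 9 WT libraries, Trem2 was closest to Ctsz (0.0538), which encodes a lysosomal protease, Fcer1g (0.0589), the Fc receptor gamma chain, and Tyrobp (0.0779), then to Pik3ap1 (0.0913), an adaptor for PI3 kinase, and Dnase2a (0.0961), a lysosomal nuclease. The median over all 13479 genes compared was 1.67. The nearest without WT core replicate 3 were C1qa, C1qc, Fcer1g, Ctsz and Pik3ap1. Over all 18 libraries, KO included, Tyrobp was closest to Ctsz (0.0779), Gusb (0.112), Fcer1g (0.115), Havcr2 (0.13) and C1qc (0.132). Among the other members, Inpp5d was closest to the Src family kinase Lyn (0.0889), Vav1 to the adaptor Fyb (0.0913) and the phosphatase Ptpn6 (0.0962), Plcg2 to the myeloid transcription factor Spi1 (0.138), Syk to B4galt1 (0.135), Card9 to the kinase Tec (0.216) and Hcst to Irf5 (0.239). Between members the closest pair over all 18 libraries was Syk and Vav1 (0.159), followed by Inpp5d and Vav1 (0.171). All libraries share the same regions and depth range, so the distances are descriptions of these samples.

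The wider pathway was read from 11 lists of 131 other genes, of which 130 were in the table and 122 were tested. Between KO and WT, 0 of the 122 passed in contralateral, peri-infarct or core tissue, and 1 did in the average over regions. Of all genes, 0.00652%, 0.00652%, 0.013% and 0.228% passed in these comparisons, so few calls are no trait of the pathway. The gene called in the average was Clec7a, which encodes the beta-glucan receptor Dectin-1, itself coupled to SYK and CARD9. It averaged 2.29 ± 0.75 CPM in KO contralateral tissue against 13.03 ± 4.22 CPM in WT contralateral tissue. It averaged 26.7 ± 6.4 CPM in KO peri-infarct tissue against 77.1 ± 19.6 CPM in WT peri-infarct tissue, and lay between 69.3 and 105 CPM in KO core against 113 to 534 CPM in WT core. KO libraries were below WT libraries in each region. Averaged over regions its log2 fold change was -1.90 ± 0.30 (adjusted p = 0.0187), and -1.52 ± 0.18 without WT core replicate 3 (adjusted p = 0.000652). Both p-values take the regions as independent and may be too small if regions share animals. Leaving out KO contralateral replicate 3, KO core replicate 1 or 3, KO peri-infarct replicate 1 or 2 or WT contralateral replicate 3 ended the call (adjusted p up to 0.0622).

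Without WT core replicate 3, Clec7a was called lower in KO contralateral tissue (-2.48, adjusted p = 0.0251) and in KO peri-infarct tissue (-1.55, adjusted p = 0.045). It was the 1 gene called among the 122 in each, where 0.0389% and 0.117% of all genes were called. In KO core over WT core 1 was then called higher, Fcgr1 (0.63, adjusted p = 0.0404, against -0.29 with all libraries), and 2 lower, Prkcb (-0.72, adjusted p = 0.0459) and Rasgrp1 (-0.93, adjusted p = 0.0211). Of all genes, 0.998% were higher and 2.06% lower in that comparison and fit, so these counts are near the shares of all genes. Excitatory neuron markers were lower there too, 3 of 6 (median -0.74), where 2.06% of all genes were. In the average over regions 2 of 6 were lower (median -0.38) in that fit. The part of neurons in these values was not tested. Clec7a had -0.53 in core in that fit and did not pass. In the same fit, 10 of the 122 were lower in KO in the average over regions (5.2% of all genes were). Besides Clec7a (-1.52) they were the receptors Cd300lb (-1.50), Lilrb4a (-1.15), Cd72 (-0.96) and Fcgr3 (-0.32), the adaptors Lat2 (-0.59) and Fyb (-0.32), the phosphatase Ptprj (-0.27), the kinase Prkcb (-0.44) and the exchange factor Rasgrp1 (-0.43). All these were named after that fit was seen. The median over the 122 was -0.23 with all libraries and -0.07 without WT core replicate 3, beside -0.01 and 0.00 over all genes.

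Across regions the lists differed in how much of each rose. In peri-infarct over contralateral tissue 34 of the 122 genes rose and 0 fell in KO, and 34 rose and 0 fell in WT, with medians of 0.96 and 0.97. In core over contralateral tissue 86 rose and 1 fell in KO, and 93 rose and 3 fell in WT, with medians of 1.82 and 2.01, beside all-gene medians of -0.01 and -0.03. The counts without WT core replicate 3 were 73 higher and 0 lower in KO peri-infarct, 73 higher and 2 lower in WT peri-infarct, 94 higher and 11 lower in KO core and 84 higher and 7 lower in WT core. Of all genes, with all libraries, 4.42% were higher in KO peri-infarct and 3.27% in WT peri-infarct tissue, and 19.7% in KO core and 29.1% in WT core. The shares lower were 0.0522% in KO peri-infarct and 0.00652% in WT peri-infarct tissue, and 3.31% in KO core and 11.5% in WT core. Without WT core replicate 3 the shares higher were 13.7% and 14.2% in KO and WT peri-infarct tissue, and 29.6% and 23.6% in KO and WT core. The shares lower were then 7.61% and 5.34% in KO and WT peri-infarct tissue, and 27.8% and 16.6% in KO and WT core. The medians of the 122 in core were then 1.81 in KO and 1.47 in WT.

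The 3 lists of receptors had the highest medians in core, with log2 fold changes of 3.73 to 4.38 in KO and 3.90 to 4.81 in WT, beside at most 2.18 in KO and 2.59 in WT for any other list. These medians without WT core replicate 3 were 3.72 to 4.37 in KO and 2.80 to 3.47 in WT, beside at most 2.17 in KO and 1.63 in WT for any other list. In that fit 12, 8 and 14 genes of the DAP12 or DAP10, other ITAM and ITIM lists rose in KO core, and 9, 7 and 14 in WT core. It called 29.6% of all genes higher in KO core and 23.6% in WT core. Of 13 tested genes of the DAP12 or DAP10 list, 12 rose in KO core and 11 in WT core. The list holds 16 genes, and the filter kept those low in contralateral tissue only through lesion libraries. Of all genes, 19.7% rose in KO core and 29.1% in WT core. The list also holds the Trem-like genes Treml1 and Treml2, whose pairing with DAP12 or DAP10 was not tested. Treml2 rose by a log2 fold change of 4.34 ± 0.47 in KO and 3.19 ± 0.44 in WT, and Clec5a by 2.62 ± 0.42 in KO and 3.09 ± 0.42 in WT. Of 8 other ITAM chains and SYK-coupled receptors, 8 rose in KO core and 8 in WT core. Fcgr1, a high-affinity IgG receptor, rose by 3.27 ± 0.41 in KO and 3.44 ± 0.41 in WT, and Fcer1g by 3.36 ± 0.48 in KO and 4.04 ± 0.50 in WT. Of 14 inhibitory receptors that carry ITIM motifs, 13 rose in KO core and 14 in WT core. Cd33, an inhibitory sialic acid receptor, rose by 2.43 ± 0.26 in KO and 1.98 ± 0.26 in WT. Of 6 tested candidate TREM2 ligands and sheddases, 4 rose in KO core and 4 in WT core, among them the lipoprotein gene Apoe (2.23 ± 0.37 in KO, 2.65 ± 0.38 in WT), the galectin Lgals3 (6.43 ± 0.98 in KO, 6.29 ± 0.95 in WT) and the protease Adam17 (2.01 ± 0.34 in KO, 2.57 ± 0.35 in WT). The WT core values without WT core replicate 3 were 2.48 for Treml2, 2.24 for Clec5a, 2.53 for Fcgr1, 2.96 for Fcer1g, 1.57 for Cd33, 1.97 for Apoe, 4.65 for Lgals3 and 1.79 for Adam17, and all 8 still passed.

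Among intracellular genes the share that rose varied by list. Of 12 Src and Tec family kinases, 7 rose in KO core and 6 in WT core, including Lyn (2.85 ± 0.39 in KO, 3.21 ± 0.39 in WT) and Btk (3.50 ± 0.47 in KO, 3.79 ± 0.47 in WT). Of 16 signalling adaptors, 13 rose in KO core and 14 in WT core, including Lcp2, which encodes SLP-76 (3.46 ± 0.45 in KO, 3.83 ± 0.45 in WT). Of 8 phosphatases and brakes, 4 rose in KO core and 5 in WT core, and Ptpn6, which encodes SHP-1, had 3.41 ± 0.42 in KO and 3.59 ± 0.42 in WT. Of 12 genes for PI3 kinase and Akt, 4 rose and 0 fell in KO core and 6 rose and 2 fell in WT core, where 19.7% of all genes rose and 3.31% fell in KO core and 29.1% rose and 11.5% fell in WT core. The leukocyte catalytic subunit Pik3cg rose by 2.78 ± 0.39 in KO and 3.21 ± 0.39 in WT. Of 9 genes for Vav and Rac, 6 rose in KO core and 8 in WT core, with Dock2, a Rac activator of leukocytes, at 3.26 ± 0.48 in KO and 3.96 ± 0.49 in WT. Of 14 genes for phospholipase C, calcium and protein kinase C, 7 rose and 1 fell in KO core and 8 rose and 1 fell in WT core. The gene that fell in KO and in WT was Stim1, a calcium sensor of the endoplasmic reticulum, named here after its value was seen. Of 10 genes for the CARD9 complex and NF-kB, 8 rose in KO core and 9 in WT core, with Nfkb2 at 2.13 ± 0.28 in KO and 1.92 ± 0.28 in WT and Nfkb1 at 1.57 ± 0.25 in KO and 1.77 ± 0.25 in WT. In WT core without replicate 3 the values were 2.38 for Lyn, 2.84 for Btk, 2.91 for Lcp2, 2.67 for Ptpn6, 2.38 for Pik3cg, 2.94 for Dock2, -0.26 for Stim1, 1.44 for Nfkb2 and 1.24 for Nfkb1, and all 9 still passed. In that fit 5 of 8 phosphatases and brakes rose in KO core and 3 of 8 in WT core, and 9 of 10 genes for the CARD9 complex and NF-kB rose in KO core and 6 of 10 in WT core. Genes that fell then numbered 5 in KO core and 4 in WT core of the 14 for phospholipase C, calcium and protein kinase C, and 3 in KO core and 2 in WT core of the 12 for PI3 kinase and Akt. Of all genes in that fit, 29.6% rose and 27.8% fell in KO core, and 23.6% rose and 16.6% fell in WT core.

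**Figure D5:**
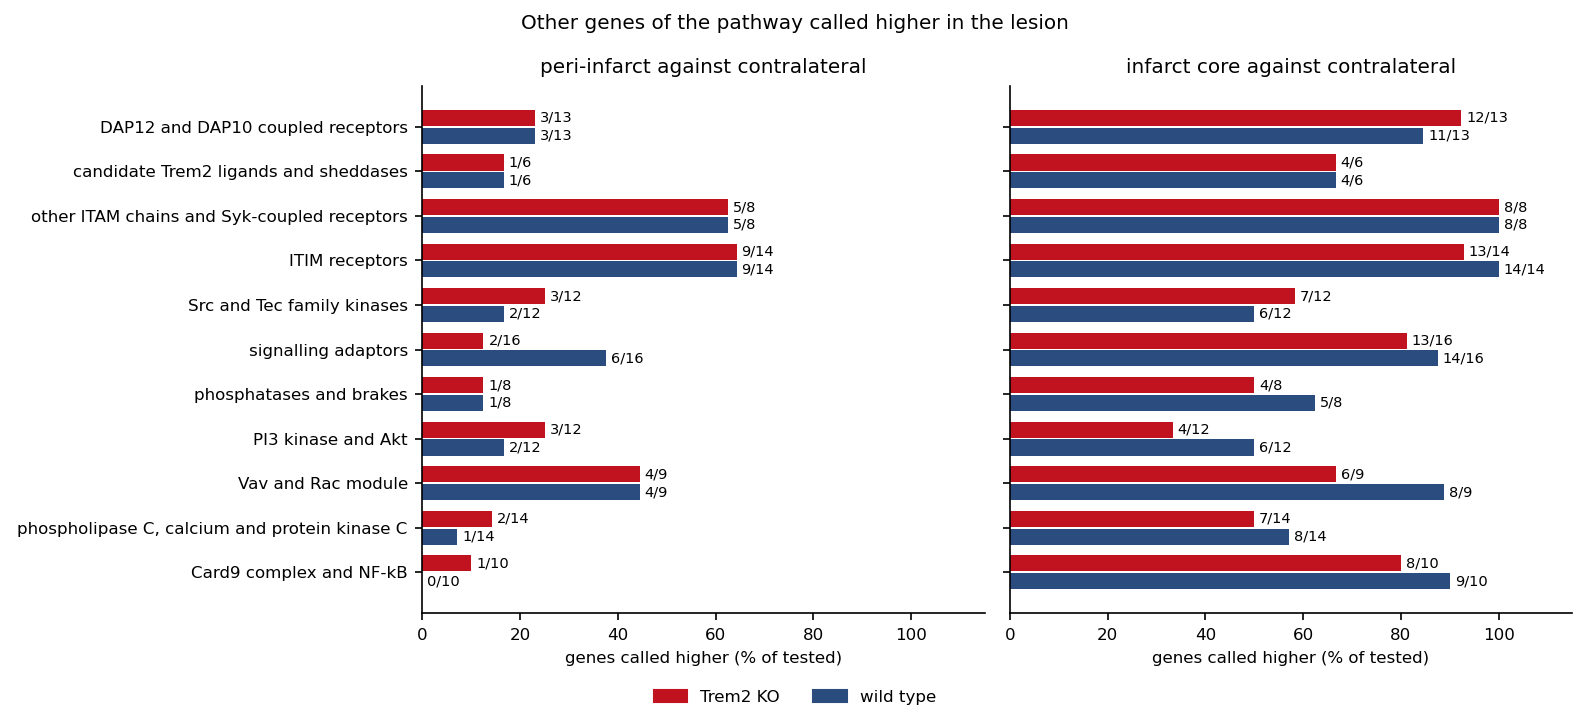
Share of the tested genes of each pathway list that were called higher in peri-infarct or core tissue over contralateral tissue, in percent, with KO above WT, from edgeR with all libraries. In core the bars reach 100% for the other ITAM chains in KO and WT, and are lowest for the PI3 kinase and Akt list in KO, where 4 of 12 genes were called.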

How the data were processed

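Expression was measured in 18 polyA RNA-seq libraries. The authors deposited 1 table with estimated read counts (expected counts, not whole for 3678 genes or 19.4% of the table) and TPM for each library. HISAT2 2.0.4, Bowtie2 and Subread and the builds GRCm39 and mm39 are listed in the submitters' processing notes, and which of them made which values is not stated there. Libraries were grouped by their titles. Deposited counts were rounded, filtered with filterByExpr, scaled by TMM and fitted in edgeR 4.0.16 (R 4.3.3) as 6 group means over all 18 libraries by robust quasi-likelihood, with Benjamini-Hochberg adjustment over 15329 genes and a threshold of 0.05; the code was tested on simulated data. SEs were obtained from each log2 fold change and its F statistic, which makes them unreliable for fold changes near 0. Relative levels and TPM alternatives used limma 3.58.1, and DESeq2 1.42.0 was an alternative, as were RLE size factors, no filter, log2 TPM with pseudocounts 1 and 0.1, only the compared libraries, a replicate block and each library left out. Alternatives for the wider pathway were added after seeing the data.

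The design had assumed whole counts. Members and lists were chosen with earlier results of these data known. All members were named, and up to 3 called genes of each list with the smallest p and a mean log2 CPM of at least 0; of these the text gives a selection that was named in KO or in WT. Same-numbered libraries deviated together between WT contralateral and WT peri-infarct tissue (r = 0.398, 0.436 and 0.386), which paired them by the rule used, and not in every pair of any other comparison. The labels do not say that replicates are separate animals, so each p-value sets a difference against the spread of these libraries alone, which may be technical. Averages over regions took libraries of different regions as independent, which the labels neither state nor exclude. Total counts of 16993978 to 18713770 make 1 CPM about 17 reads.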

Additional observations from a re-analysis of the deposited data

How the results depend on the processing

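Partner counts moved as follows under other settings. DESeq2 called 1 partner in the KO over WT average and 3 in KO core over KO peri-infarct tissue. In that comparison limma on log2(TPM + 0.1) called 4, on log2(TPM + 1) 6 (4 with no minimum), and a fit of only the libraries compared 6. In WT core over WT peri-infarct tissue these settings called 2, 4, 4 and 0, and the replicate block 0. WT core over WT contralateral tissue gave 0 with only the libraries compared. WT peri-infarct over WT contralateral tissue gave 3 with no filter and 3 with RLE size factors, and 6 with the replicate block, whose libraries pair. The block changed no other partner count and left Trem2 called in each region (KO over WT -5.34, -5.19 and -5.87 in contralateral, peri-infarct and core tissue). Trem2 in core with only the libraries compared was -6.10 and did not pass. With 1 library left out at a time, partner counts ran from 0 to 1 in the KO over WT average and from 0 to 7 in KO core over KO peri-infarct, KO peri-infarct over KO contralateral, WT core over WT peri-infarct and WT peri-infarct over WT contralateral tissue. Trem2 ran from -5.62 to -4.99 in contralateral and from -5.35 to -5.02 in peri-infarct tissue. Pathway genes called higher ran from 0 to 82 in KO core over KO peri-infarct, 4 to 73 in KO peri-infarct over KO contralateral, 0 to 88 in WT core over WT peri-infarct and 0 to 73 in WT peri-infarct over WT contralateral tissue.

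For the members, signs turned only in values that passed in no setting run. For KO minus WT of the core rise, limma on log2(TPM + 0.1) and then on log2(TPM + 1), whose values were the same with no minimum, gave 0.11 and 0.087 for Card9, 0.042 and 0.019 for Inpp5d, 0.27 and 0.19 for Syk, 0.077 and 0.074 for Tyrobp and 0.14 and 0.079 for Vav1. For KO minus WT of the peri-infarct rise, they gave 0.048 and 0.030 for Inpp5d and 0.077 and 0.029 for Vav1, and log2(TPM + 1) gave -0.26 for Trem2. In the same contrast Vav1 was 0.013 by DESeq2 and 0.013 with RLE size factors, Tyrobp -0.00090 with no filter and -0.013 with only the libraries compared, and Card9 -0.00052 with only the libraries compared. With 1 library left out, the core interaction ran from -0.69 to 0.43 for Card9, -0.37 to 1.31 for Hcst, -0.77 to 0.38 for Inpp5d, -0.99 to 0.38 for Plcg2, -0.63 to 0.72 for Syk, -1.22 to 0.32 for Trem2, -0.96 to 0.54 for Tyrobp and -0.72 to 0.52 for Vav1. The peri-infarct interaction ran from -0.38 to 0.32 for Card9, -0.14 to 0.030 for Inpp5d, -0.22 to 0.12 for Plcg2, -0.11 to 0.28 for Syk, -0.19 to 0.44 for Trem2, -0.10 to 0.21 for Tyrobp and -0.14 to 0.14 for Vav1. KO over WT in core ran from -0.69 to 0.29 for Card9, -1.59 to 0.093 for Hcst, -1.07 to 0.091 for Inpp5d, -1.15 to 0.23 for Plcg2, -1.06 to 0.30 for Syk and -1.12 to 0.13 for Vav1. In contralateral tissue it ran from -0.44 to 0.27 for Card9, in peri-infarct tissue from -0.32 to 0.12 for Hcst, and on average from -0.33 to 0.0039 for Card9. The causes were not tested. With only the libraries compared, Hcst did not pass the filter between KO and WT contralateral tissue or between peri-infarct and contralateral tissue of either genotype, so those values could not be given. Hcst had 1 to 5 counts in contralateral libraries and residual Trem2 6 to 16 counts in KO contralateral libraries, which limits the precision of both.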
